A study of Homo sapiens with 8 samples.

Results

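UFC1 and 5 further genes of UFM1 conjugation (UFM1, UFL1, DDRGK1, CDK5RAP3 and UFSP2) were followed in an AGO2 RIP-chip experiment in A431 cells, an established human line of cutaneous squamous cell carcinoma (cSCC). These 6 genes are 6 of the 22439 gene symbols that the array probes could be matched to, and all 6 are among the 10959 genes that were measured. The 5 genes beside UFC1 were taken from the same pathway as textbook members. They were chosen with earlier results of these data known, so their p-values do not come from a blind choice. UFC1 was selected on the arrays themselves, because its fold change of enrichment was among the largest rises. For UFC1, the fold change of enrichment and the levels behind it are therefore given as a description, with no test. The cells received either miR-NC, the control miRNA, or miR-634 by transfection (10 nM), and lysates were made 24 h later. Input and RIP of miR-NC cells and input and RIP of miR-634 cells made up the 4 groups, with 2 arrays each. The RIP arrays carried RNA pulled down with the AGO2 antibody. The study's methods describe the input arrays as total RNA, while the sample labels name a normal rabbit IgG antibody for them, and they were treated here as input. Whether the duplicates were separate transfections is not stated, so every p-value measures only the spread between these arrays. All 8 arrays were on 1 slide and were read in 1 scan. Row 1 of the slide held input and row 2 held RIP, so row and kind of RNA cannot be told apart.

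UFM1 is a small protein that folds like ubiquitin and is attached to lysines of other proteins by its own enzymes. A protease first trims its end. The conjugating enzyme (E2) UFC1 later carries it, and a ligase (E3) made of UFL1, DDRGK1 and CDK5RAP3 passes it on to targets at the endoplasmic reticulum (ER), above all ribosomes docked at the translocon. The pathway is known for its part in clearing stalled ribosomes, in turnover of ER sheets and in ER homeostasis of secretory and blood-forming cells. AGO2 is the protein that holds a miRNA and the mRNAs bound through it, and a higher RIP/input means that more of an mRNA was in the AGO2 fraction relative to other mRNAs.

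The miRNA that was added is shown because all comparisons turn on it. Its mature sequence from RefSeq (GRCh38.p14) lies at chr17:66787132-66787153 on the + strand, and capitals mark the seed, bases 2 to 8, with which a miRNA first pairs to an mRNA.
hsa-miR-634: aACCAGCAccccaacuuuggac
The complement of this seed in an mRNA reads UGCUGGU. The transcripts of the UFM1 conjugation genes were not searched for it, because transcript sequences were not used here.

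Squamous cell identity was checked first. All 8 markers of A431 cells (EGFR, KRT5, KRT6A, KRT14, KRT17, CDH1, TP63 and SFN) were well above background on the 4 input arrays. Of 10 markers of leukocytes, fibroblasts, endothelium and melanocytes, 2 (CD14 and CDH5) were also above it on the 4 input arrays, PTPRC and PDGFRB were on 3 of the 4, COL1A1 was on 1, and the other 5 (CD3E, COL1A2, PECAM1, MLANA and TYR) were on 0. The share of spots well above background was 45.6% to 45.8% for input, 33.6% and 34.5% for miR-NC RIP and 40.0% for both arrays of miR-634 RIP. The 6 genes had 8 probes. All probes of UFC1, UFL1, UFSP2 and DDRGK1 (1 each) were well above background on the 8 arrays, and UFM1 and CDK5RAP3 each had 1 probe that was and 1 that was not. Levels below are log2 intensities from which the 75th percentile of the array was subtracted, so a level of 0 is that percentile. Levels are compared only within a probe. RIP/input is the RIP level minus the input level on the log2 scale, and the fold change of enrichment is RIP/input in miR-634 cells over that in miR-NC cells.

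The AGO2 fraction of miR-634 cells held more mRNA of UFC1, DDRGK1 and UFSP2, slightly more of CDK5RAP3, and less of UFM1 and UFL1, the last 2 only where arrays were not scaled on the spike-in probes. Of the 5 genes other than UFC1, 3 were called higher in the fold change of enrichment (DDRGK1, UFSP2 and CDK5RAP3) and 2 lower (UFL1 and UFM1) by limma with Benjamini-Hochberg adjustment, but with scaling on the spike-in probes the values of UFL1 and UFM1 were above 0. Among all 10959 measured genes, 28.1% were called higher and 43.2% lower, so that most genes moved and a call by itself says little about these genes. The RIP change had the same 3 genes higher and 2 lower, where 30.9% of all genes were higher and 46.5% lower, while under spike-in scaling 3 were higher and 0 lower, where 7280 of all genes were higher and 357 lower. In the input, none of the 5 genes was called by limma in either direction, where 11.6% of all genes were called higher and 12.1% lower, and 1 (UFSP2, lower) had an unadjusted p under 0.05, as did 4100 of the 10959 genes. In miR-NC cells, the RIP level of 3 of the 5 was called under the input level and that of 0 was called above it (0 also at an unadjusted p under 0.05 by limma), against 45.3% and 33.5% of all genes, while under spike-in scaling all 5 were called under it, as were 10755 of all genes. In miR-634 cells, 2 were called under and 3 above, against 48.3% and 36.1% of all genes, while under spike-in scaling 3 were called under and 1 above (DDRGK1), against 9230 and 666 of all genes. The median log2 fold change of enrichment was 0.32 over the 5 genes and -0.22 over all measured genes. The arrays measured RNA of whole cultures, so fewer cells holding a transcript and less of it per cell cannot be told apart.

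**Figure D1:**
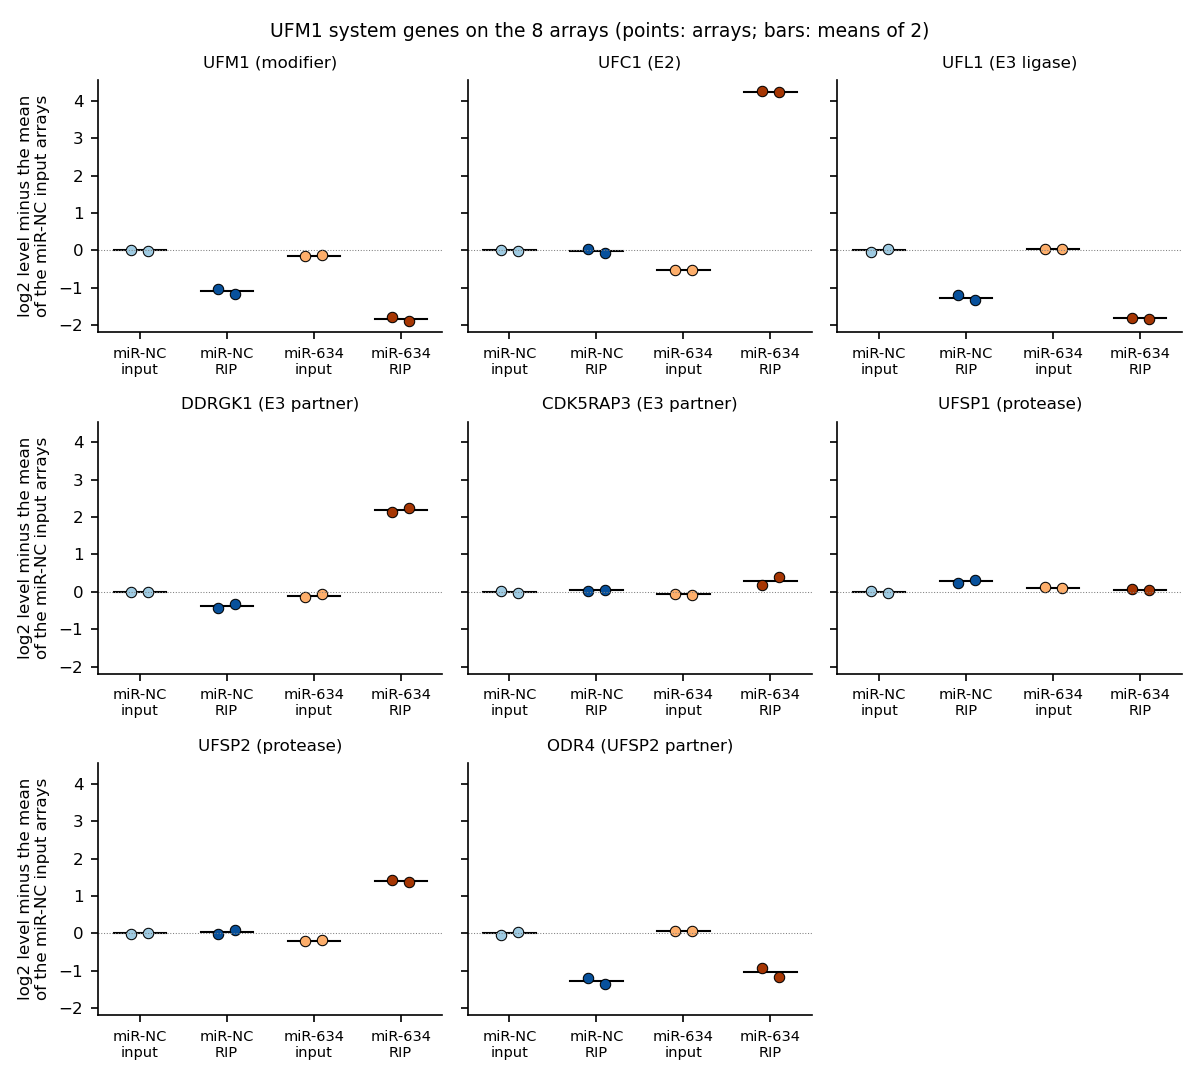
Each panel shows 1 gene, with the log2 level on each array (points) and the mean of 2 arrays (bars) on the y axis, relative to the mean of the miR-NC input arrays, and the 4 groups on the x axis. Between the 2 RIP groups, UFC1 is 4.25 higher with miR-634, DDRGK1 2.57 and UFSP2 1.36. UFM1 and UFL1 have a lower RIP level with miR-634 at this scaling, and RIP changes above 0, neither of them called (adjusted p = 0.587 and 0.157 by limma), when arrays are scaled on the spike-in probes.

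UFM1 is the modifier itself. Its brighter probe (NM_001286706) had log2 levels of -0.49 and -0.53 in the miR-NC input, -1.54 and -1.67 in the miR-NC RIP, -0.66 and -0.64 in the miR-634 input and -2.30 and -2.39 in the miR-634 RIP. Both RIP groups lay under both input groups, the miR-634 RIP lowest, and no array of one RIP group reached the other. RIP/input with miR-NC was -1.09 on the log2 scale, and with miR-634 it was -1.69 (standard error 0.06 each, adjusted p = 8.68e-06 and 7.25e-07 by limma). The log2 fold change of enrichment was -0.60 (95% interval -0.81 to -0.39, adjusted p = 0.000973 by limma), and it was 0.50 (adjusted p = 0.103 by limma) with spike-in scaling. Against the median of all genes, which no shift of whole arrays can move, it was -0.38. The input change was -0.14 (adjusted p = 0.155 by limma). The dimmer UFM1 probe (NM_016617) was not well above background on either miR-NC RIP array or on miR-634 RIP array 1. In miR-NC cells its RIP level was at least 1.53-fold lower than its input level, taking the dim group, array by array, at the lowest signal well above background or at its own signal where that was higher. No fold change of enrichment is given for this dimmer probe, so the value of UFM1 rests on 1 probe.

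UFC1 (NM_016406), the E2 that carries UFM1 to the ligase, had the pattern on which it was chosen. Its probe was 1 of 300 that were printed as 10 spots on each array. The mean intensity over the spots, before any scaling, was 2319 and 2269 in the miR-NC input, 580 and 510 in the miR-NC RIP, 1625 and 1490 in the miR-634 input and 20750 and 19772 in the miR-634 RIP. The miR-634 RIP arrays thus stood far above the other 6, and no groups overlapped. After scaling, the log2 levels were -0.33 and -0.34 in the miR-NC input, -0.30 and -0.39 in the miR-NC RIP, -0.86 and -0.84 in the miR-634 input and 3.92 and 3.90 in the miR-634 RIP. At this scaling the RIP and input levels of miR-NC cells overlapped, while in miR-634 cells the RIP level was far above the input level, and the miR-634 input was the lowest group.

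In miR-NC cells, the log2 RIP/input of UFC1 was -0.01 ± 0.06 (SD, n = 2), near the median gene at -0.12, and it was -2.60 under spike-in scaling. In miR-634 cells it was 4.76 ± 0.03 (SD, n = 2), where the median gene was at -0.17, and 3.27 under spike-in scaling. Each SD is over 2 ratios of RIP and input arrays matched by number, a match that the labels do not establish. The 75th percentile scaling thus gives a log2 fold change of enrichment of 4.77 (standard error 0.07), or 27.3-fold, with 26.9-fold from the arrays numbered 1 and 27.7-fold from those numbered 2. It was made up of a RIP change of 4.25 and an input change of -0.52 on the log2 scale (standard error 0.05 each). By rank among the 10959 genes, UFC1 was number 4 from the highest in the fold change of enrichment and number 3 in the RIP change. Its input change was below that of most genes, with 3.34% of the genes further down. Against the median gene, the log2 fold change of enrichment was 4.99. Under the other scalings it ranged from 4.62 (normexp and quantile) to 5.87 (spike-in probes).

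**Figure D2:**
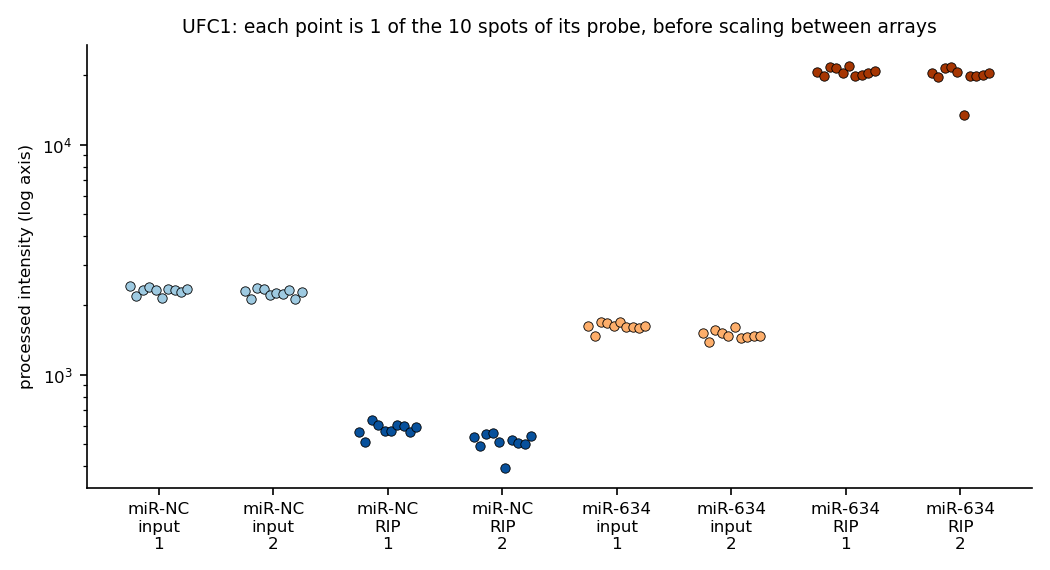
Each point is 1 of the 10 spots of the UFC1 probe on an array, with processed intensity before scaling between arrays on a log y axis and the 8 arrays on the x axis. The spots of miR-634 RIP lie above those of the other 6 arrays without overlap, and spot 6 is low on miR-634 RIP array 2 (13443) and on miR-NC RIP array 2 (395).

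The 10 spots showed how well 1 array measures UFC1. The coefficient of variation over the spots was between 3.50% and 4.18% on the input arrays. For RIP it was 5.70% and 9.19% with miR-NC, and 3.64% and 11.8% with miR-634. The higher value of each RIP pair came with 1 low spot at the same place of the probe's set, as in the plot of spot intensities. Taken spot by spot, the fold change of enrichment was between 24.2 and 29.8, with a median of 27.5. The spots share 1 labelled RNA sample per array and are not replicates of the cells.

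UFL1 is the E3 ligase of the pathway. Its log2 levels were -0.21 and -0.12 in the miR-NC input, -1.36 and -1.50 in the miR-NC RIP, -0.14 and -0.14 in the miR-634 input and -1.97 and -1.99 in the miR-634 RIP. The input groups overlapped, and the RIP arrays lay under them, those of miR-634 cells lower than those of miR-NC cells. On the log2 scale, RIP/input was -1.26 with miR-NC and -1.84 with miR-634 (standard error 0.06 each), and 2.41% of all genes had a lower RIP/input in miR-634 cells. As a result the log2 fold change of enrichment was -0.58 (95% interval -0.79 to -0.37, adjusted p = 0.00106 by limma), it was 0.52 (adjusted p = 0.0915 by limma) with spike-in scaling, and against the median gene it was -0.37. The methods' t-test, run on the ratio per array number, did not call it after adjustment (0.0665). The input change was 0.03 (95% interval -0.12 to 0.18, adjusted p = 0.756 by limma).

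DDRGK1 is the ER membrane protein that anchors UFL1. It had log2 levels of -0.69 and -0.70 in the miR-NC input, -1.14 and -1.03 in the miR-NC RIP, -0.85 and -0.76 in the miR-634 input and 1.43 and 1.54 in the miR-634 RIP. The miR-634 RIP arrays were high and the miR-NC RIP arrays low, with the input arrays between them. RIP/input was thus under 1 in miR-NC cells (log2 -0.39, standard error 0.06, adjusted p = 0.00135 by limma) and over 1 in miR-634 cells (log2 2.29, standard error 0.06, adjusted p = 2.96e-07 by limma). The fold change of enrichment was 6.39 (log2 2.68, 95% interval 2.46 to 2.89, adjusted p = 2.04e-06 by limma), and 98.7% of all genes had a lower value. Almost all of it came from the RIP, which changed by 2.57 (adjusted p = 3.63e-07 by limma), against an input change of -0.11 (95% interval -0.26 to 0.05, adjusted p = 0.286 by limma).

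CDK5RAP3, the third part of the ligase, binds UFL1 and DDRGK1 and helps to choose targets. The log2 levels of its brighter probe (NM_001278198) were -1.90 and -1.95 in the miR-NC input, -1.89 and -1.88 in the miR-NC RIP, -1.97 and -2.01 in the miR-634 input and -1.73 and -1.53 in the miR-634 RIP. The miR-634 RIP arrays were the highest of the 8, and the other groups lay close together. The log2 fold change of enrichment was 0.32 (95% interval 0.08 to 0.56, adjusted p = 0.0245 by limma), or 0.54 against the median gene. The call was weak. It was lost without the filter on dim probes (adjusted p = 0.0608 by limma), and limma gave an adjusted p of 0.0768 without miR-NC input array 1, 0.0515 without miR-NC input array 2, 0.053 without miR-NC RIP array 1, 0.0532 without miR-634 input array 1 and 0.075 without miR-634 input array 2. The log2 value was 0.22 without miR-634 RIP array 2 and 0.42 without miR-634 RIP array 1. The other CDK5RAP3 probe (NM_001278197) was not well above background on any array, so no fold change is given.

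UFSP2 is the main protease that removes UFM1 from its targets. Its log2 levels were -1.09 and -1.07 in the miR-NC input, -1.10 and -0.99 in the miR-NC RIP, -1.29 and -1.26 in the miR-634 input and 0.36 and 0.28 in the miR-634 RIP. At this scaling RIP and input of miR-NC cells overlapped, and in miR-634 cells the RIP arrays were the highest and the input arrays the lowest of all. RIP/input was 0.04 in miR-NC cells (adjusted p = 0.578 by limma) and 1.59 in miR-634 cells (adjusted p = 6.33e-07 by limma). With spike-in scaling they were -2.55 (adjusted p = 3.01e-36 by limma) and 0.11 (adjusted p = 0.606 by limma). The fold change of enrichment was 2.94 (log2 1.56, 95% interval 1.36 to 1.75, adjusted p = 9.22e-06 by limma), and 92.9% of all genes had a lower value. The input change of -0.19 was just short of a call (adjusted p = 0.0526 by limma), and passed it with an intensity trend in the variance (0.0347) or without either miR-NC RIP array (0.0365 each), but not under the other alternatives (adjusted p up to 0.36 by limma).

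UFSP1, the smaller protease that matures UFM1, and ODR4, which holds UFSP2 at the ER, were also measured. The brighter UFSP1 probe had a log2 fold change of enrichment of -0.32 (adjusted p = 0.00416 by limma), with 0.78 (adjusted p = 0.0109 by limma) under spike-in scaling and -0.11 against the median gene. Its call was lost under quantile scaling with or without normexp, the percentile over all probes, the authors' values and the methods' t-test (0.0549 to 0.191). The second UFSP1 probe gave -0.29 (adjusted p = 0.0721 by limma over all probes). In miR-634 cells the probes had log2 RIP/input values of -0.04 and 0.21, neither of them called. For ODR4, the log2 fold change of enrichment was 0.17 (95% interval -0.15 to 0.48, adjusted p = 0.298 by limma), and it was 1.27 (adjusted p = 2.7e-05 by limma) under spike-in scaling. With 1 array left out it lay between 0.038 without miR-634 RIP array 1 (adjusted p = 0.748 by limma) and 0.29 without miR-634 RIP array 2 (adjusted p = 0.046 by limma). Its RIP level was under the input level in both kinds of cells, by log2 values of -1.27 and -1.11. Of these 2 further genes of the UFM1 system, 1 was called lower (UFSP1) and 1 was not called (ODR4). Among all genes 28.1% were called higher and 43.2% lower. Under spike-in scaling both were above 0 and called, as were 7341 of all 10959 genes.

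**Figure D3:**
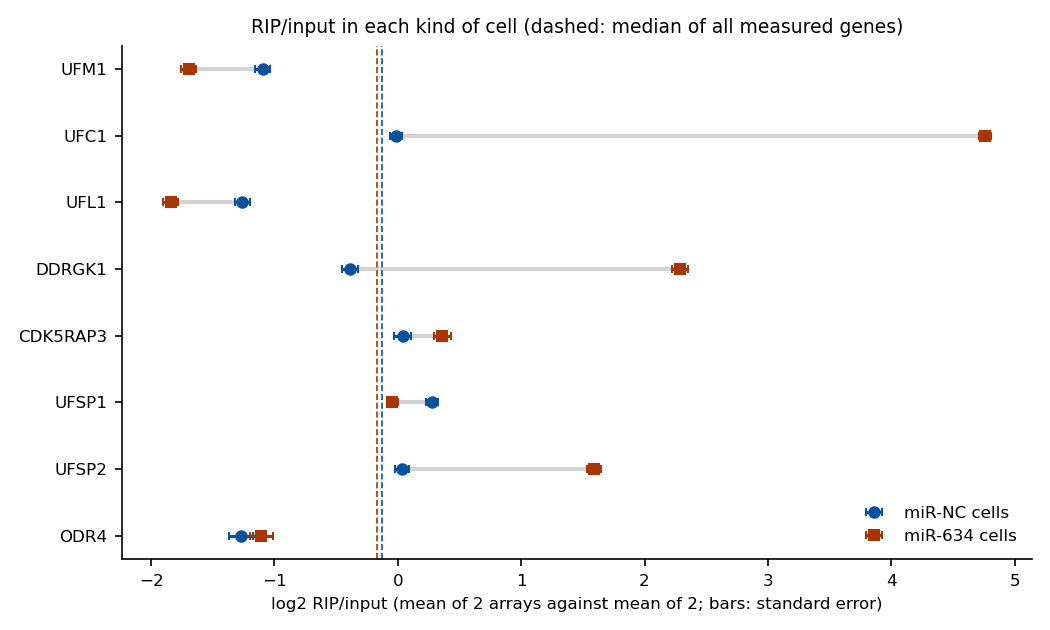
Points show the log2 RIP/input of each gene in miR-NC cells (circles) and miR-634 cells (squares), from 2 RIP and 2 input arrays each, with bars for the standard error and dashed lines for the median of all measured genes. At the 75th percentile scaling UFC1 moves from -0.01 to 4.76, DDRGK1 from -0.39 to 2.29 and UFSP2 from 0.04 to 1.59, while UFM1 and UFL1 are below the median in both kinds of cells.

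In order of the fold change of enrichment, the genes ran UFC1, DDRGK1, UFSP2, CDK5RAP3, ODR4, UFSP1, UFL1 and UFM1. UFL1 and UFM1, at -0.58 and -0.60 with a standard error of 0.09 each, did not differ beyond their spread, and the same holds for CDK5RAP3 and ODR4, at 0.32 and 0.17 with standard errors of 0.10 and 0.13. The mRNAs of the ligase parts did not move together in the fold change of enrichment, with DDRGK1 at 2.68 and UFL1 at -0.58. Their gap does not depend on a shift of whole arrays. The ligase itself was not measured. Over the 8 arrays, the profiles of UFM1 and UFL1 were the nearest pair of these 8 genes, with a Euclidean distance of 0.354 between log2 levels centred on each gene's mean.

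The genes next to UFC1 by rank show where it was picked, and are given as a description. Directly above it, the fold change of enrichment was 28.5 for TMEM18, 36.1 for ATP6V0B and 47.4 for MED30, and directly below it 22.6 for ANKRD37, 22.4 for MAN1B1-DT and 22.0 for XCR1. These genes began from a different RIP/input in miR-NC cells, with log2 values between -1.46 for MED30 and 0.48 for XCR1, where UFC1 was at -0.01. All of them had an input change below 0, from -0.21 for TMEM18 to -0.94 for ATP6V0B. The profiles nearest to UFC1 over the 8 arrays were those of XCR1, RGS12, LPAR3, TMEM18 and PPP3CC, at Euclidean distances of 0.868, 0.976, 1.14, 1.18 and 1.21, where the median over all genes was 5.71. Their fold changes of enrichment lay between 11.5 for RGS12 and 28.5 for TMEM18.

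UFM1 acceptors and readers were the first list beyond the enzymes. Of 7 listed genes 6 were measured, and 1 was called higher and 2 lower in the fold change of enrichment (28.1% and 43.2% of all genes). The list median was -0.28 against -0.22 over all genes, and it was 0.82 under spike-in scaling. RPL26, the ribosomal protein that is the best known UFM1 target, had a log2 fold change of -1.08 (adjusted p = 2.58e-05 by limma), and 0.027 under spike-in scaling. CYB5R3, an ER reductase modified by UFM1, had -0.66 (adjusted p = 0.00103 by limma), and 0.44 under spike-in scaling. TRIP4, a transcription coactivator modified by UFM1, rose by 0.86 (adjusted p = 0.00806 by limma). In the input, 0 of the 6 were called by limma (11.6% of all genes were higher and 12.1% lower), and 1 had an unadjusted p under 0.05, as did 4100 of the 10959 genes.

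Translocon and ribosome quality control genes act on the ribosomes that UFM1 marks. Of 17 listed 15 were measured, with 6 higher, 6 lower (28.1% and 43.2% of all genes) and 3 not called. The median log2 fold change was 0.00, and 1.11 under spike-in scaling. With 1 array left out it lay between -0.107 (without miR-634 RIP array 2) and 0.106 (without miR-NC RIP array 1). SEC61G and SEC61B, both small subunits of the translocon, went opposite ways, at 1.58 (adjusted p = 1.13e-05 by limma) and -0.85 (adjusted p = 3.65e-05 by limma, with 0.25 under spike-in scaling). ANKZF1, which frees stalled peptides from their tRNA, rose by 1.08, and ASCC2, of a complex that takes collided ribosomes apart, was at -0.88, with 0.23 under spike-in scaling.

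Among ER-phagy receptors, which hand ER to autophagosomes, 5 of 9 were measured, with 3 higher and 2 lower (28.1% and 43.2% of all genes) and a median of 1.08. RETREG2 had a fold change of enrichment of 4.10 and ATL3 of 3.71 (log2 2.03 and 1.89, adjusted p = 5.46e-06 and 2.02e-06 by limma). TEX264 and RTN3 had log2 values of -0.80 and -0.76, and 0.31 and 0.35 under spike-in scaling. In the input, 0 of the 5 were called by limma (11.6% of all genes were higher and 12.1% lower), and 1 had an unadjusted p under 0.05, as did 4100 of the 10959 genes.

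ER stress genes were the next list, which like the others was chosen with earlier results of these data known. Of 14 listed 12 were measured, and 9 of the 12 were called higher and 0 lower by limma in the miR-634 input (9 and 0 also at an unadjusted p under 0.05), against 11.6% and 12.1% of all genes. The median log2 input change was 0.36, where it was -0.01 over all genes. Under spike-in scaling 0 of the 12 were called in the input, with a median of 0.12, where 25 of the 10959 genes were called higher and the median gene was at -0.25. With 1 array left out 5 to 10 of the 12 were called higher, where 394 to 1407 of all genes were, and without the filter on dim probes 4 were, where 370 of 22434 genes were. In the fold change of enrichment, 2 were higher and 8 lower (28.1% and 43.2% of all genes), with a median of -0.54, which was 0.56 under spike-in scaling. HERPUD1, a part of ER-associated degradation, and DDIT3, the stress transcription factor CHOP, rose by 1.57 and 1.14. DNAJB9, an ER co-chaperone, and ATF6, an ER stress sensor, had -1.30 and -1.28, and were not called under spike-in scaling, at -0.19 and -0.18 (adjusted p = 0.537 and 0.571 by limma).

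**Figure D4:**
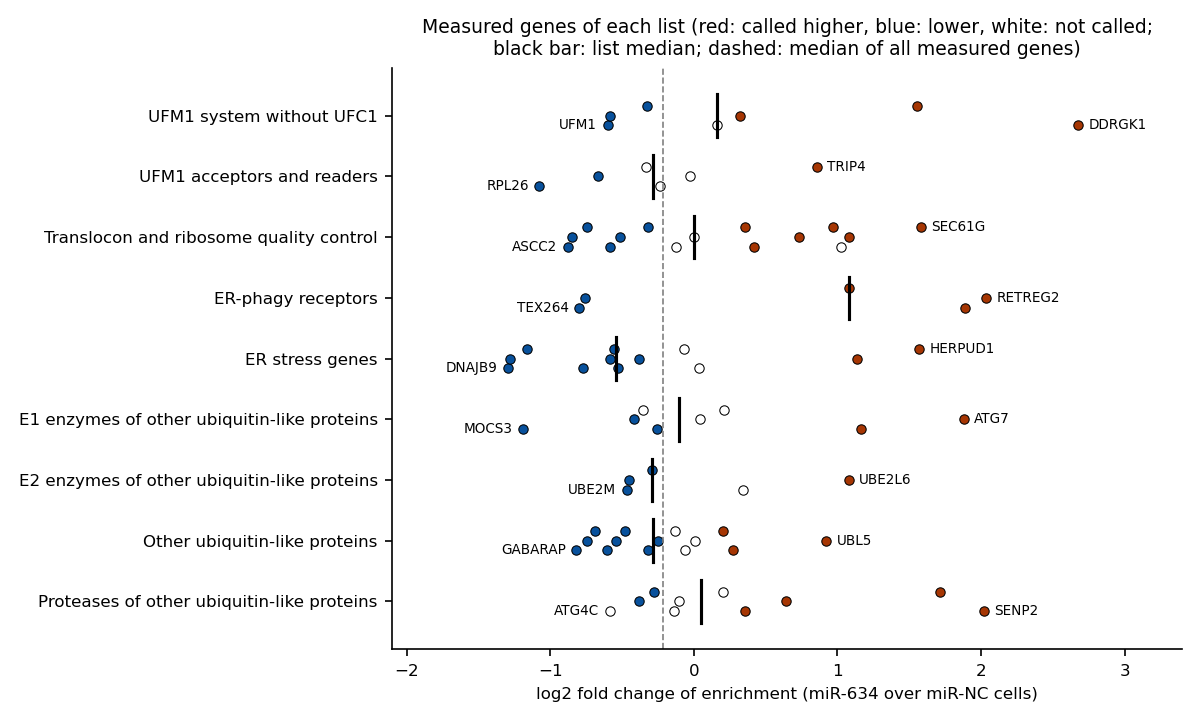
Each point is a measured gene of a list, with its log2 fold change of enrichment on the x axis. Red points were called higher and blue points lower by limma, white points were not called, black bars are list medians and the dashed line is the median of all measured genes, -0.22. UFC1, at 4.77, is not plotted. DDRGK1 at 2.68 is the plotted point furthest to the right, and under spike-in scaling all points lie further right by 1 shared step, so that most blue points lie above 0.

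The enzymes of other ubiquitin-like proteins show what the same roles did elsewhere. For activating enzymes (E1), 8 of 9 were measured, 2 were higher and 3 lower (28.1% and 43.2% of all genes), and the median was -0.10. Without miR-NC RIP array 2 this median was 0.046. It was 0.013 with the percentile over all probes, 0.014 with the authors' values and 0.999 under spike-in scaling, and negative under the other alternatives. ATG7, the E1 of autophagy, and UBA2, of the SUMO E1, rose by 1.88 and 1.16. MOCS3, the E1 of URM1, had -1.19, and -0.09 (not called) under spike-in scaling, and SAE1, the partner of UBA2, had -0.42, and 0.69 under spike-in scaling (called higher, adjusted p = 0.0258 by limma). For E2 enzymes, the class of UFC1, 5 of 6 were measured, 1 was higher and 3 lower (28.1% and 43.2% of all genes). The median was -0.29, and 0.81 under spike-in scaling. UBE2L6, the E2 of ISG15, rose by 1.08, while UBE2M, the E2 of NEDD8, and ATG3, an E2 of autophagy, had -0.47 and -0.45, and 0.64 and 0.65 under spike-in scaling (called higher, adjusted p = 0.039 and 0.0348 by limma).

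Of the other ubiquitin-like proteins, 14 of 15 were measured, 3 were higher and 8 lower (28.1% and 43.2% of all genes). The median was -0.28, and 0.82 under spike-in scaling. UBL5 rose by 0.92 and SUMO2 by 0.27, the latter only weakly (adjusted p = 0.0199 by limma, 0.055 without the filter on dim probes, 0.0737 without miR-NC input array 1, 0.0585 without miR-634 input array 1 and 0.0532 without miR-634 input array 2). GABARAP and MAP1LC3B, both of autophagosome membranes, had -0.82 and -0.74, and 0.29 and 0.36 under spike-in scaling. Among proteases of these proteins, 10 of 12 were measured, 4 were higher and 2 lower (28.1% and 43.2% of all genes), and the median was 0.05. This median was unstable, at 0.18 without miR-NC RIP array 1, -0.047 without miR-NC RIP array 2 and 0.29 with the mean of probes. SENP2, a SUMO protease, and ATG4A, which trims autophagy modifiers, rose by 2.02 and 1.71. USP18 and SENP3 had -0.38 and -0.28, and 0.72 and 0.82 under spike-in scaling. Both calls were fragile, and under spike-in scaling both genes were called higher (adjusted p = 0.0194 and 0.00722 by limma). The call of SENP3 was lost under all further scalings, with both other filters, with a replicate block and without any of 5 single arrays (adjusted p up to 0.407 by limma), and against the median gene it was -0.065. That of USP18 was lost under normexp and quantile scaling, the percentile over all probes, the authors' values, with both other filters and without any of 5 single arrays (adjusted p up to 0.0918 by limma). The methods' t-test, run on the ratio per array number and adjusted, called neither of these 2 and did not call TRIP4 (0.109), CYB5R3 (0.0661), UBE2L6 (0.0501), UBE2M (0.0767), ATG3 (0.0887), SUMO2 (0.106) or ATG4A (0.0642). In the input, 1 gene each of the E2, protein and protease lists was called lower by limma, among them SENP2, where 12.1% of all genes were.

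Scaling set the sign of the smaller changes. With 75th percentile scaling the median of all genes was -0.22 in the log2 fold change of enrichment, and it was 0.89 when the 8 spike-in probes set the scale. The split of calls moved from 3079 higher and 4730 lower to 7341 higher and 176 lower. DDRGK1, UFSP2 and CDK5RAP3 were called higher under both, and UFC1 was at 4.77 and 5.87. UFM1, UFL1 and UFSP1 were below 0 under the 75th percentile, median, quantile and normexp scalings, the percentile over all probes and the authors' values, and above 0 with the spike-in probes. How much RNA entered each labelling is not known here, so none of the scalings gives absolute amounts.

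**Figure D5:**
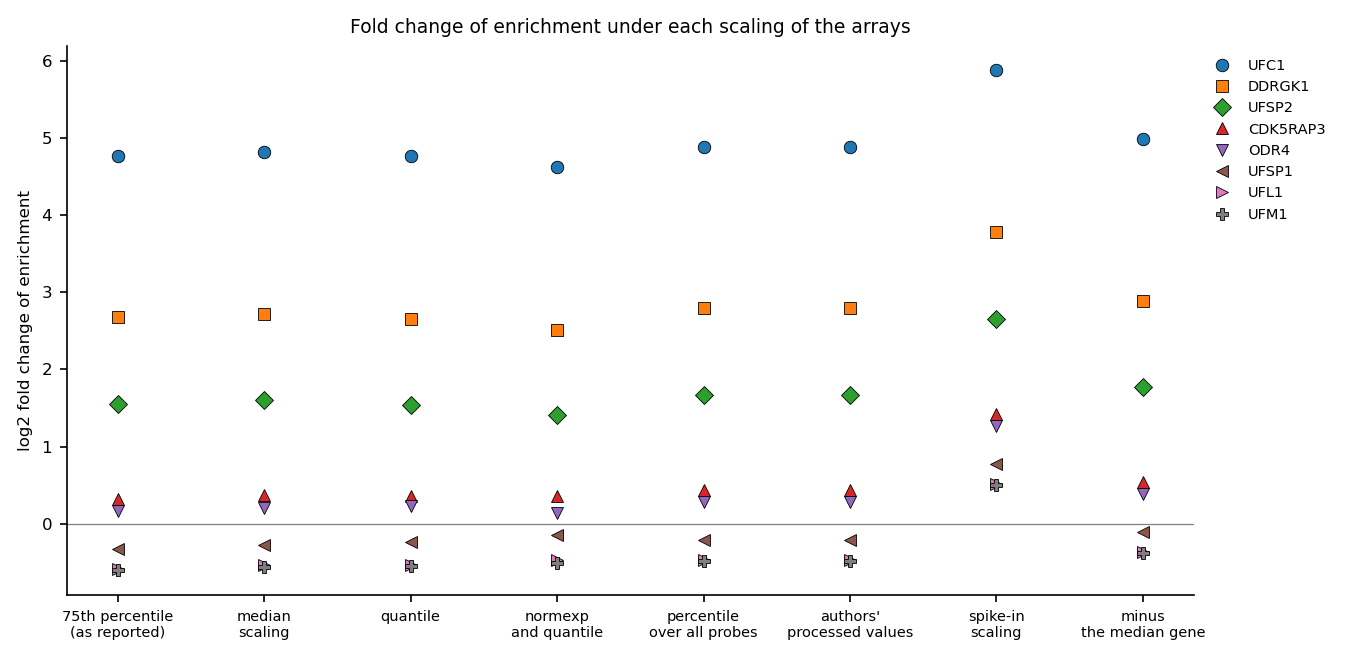
The log2 fold change of enrichment of the 8 genes is on the y axis and the scaling on the x axis, with 1 point per gene. The order of the genes changes little, while spike-in scaling lifts all of them alike and takes UFM1 to 0.50 and UFL1 to 0.52.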

How the data were processed

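RIP-chip of A431 cells gave 8 one-color Agilent arrays, 2 for each of the 4 groups. For each spot the authors deposited an intensity, processed within the array by Agilent Feature Extraction (9.1 per the submitters' processing notes, with another version in the file headers), and a table of processed log2 values, which matched log2 intensities after subtraction of the array's 75th percentile (all probes) and centering of every probe, and served as an alternative. Per array, the median of these log2 values ranged from -0.44 to 0.87.

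After removal of controls and outliers, the remaining spots of each probe were averaged and put on the log2 scale. Saturated spots were absent (0 on each array). Well above background on all 8 arrays were 16808 of 58201 probes (28.9%), and the 75th percentile over them was subtracted from each array. RefSeq accessions were given for 33080 probes, and 31104 of these could be matched to 1 symbol through the RefSeq gene table (GRCh38.p14), without versions. The brightest passing probe stood for a gene. Under R 4.3.3, limma 3.58.1 fitted the comparisons (lmFit on 4 group means, eBayes), with Benjamini-Hochberg adjustment over all 10959 genes and a threshold of 0.05. Plots and tables used Python 3.11.15, pandas 2.3.3 and matplotlib 3.10.9. The code was tested on simulated data.

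The members and lists were chosen with earlier results of these data known. Of the planned genes, 2 were fitted with the rest and are not reported. Genes were named by rule: the UFM1 system, the 3 genes above and the 3 below UFC1 by fold change of enrichment, its 5 nearest profiles, and from each list up to 2 rises and 2 falls with an adjusted p under 0.05. No block for slides was needed, since there was 1 slide, scanned once. Alternatives were other backgrounds and scalings, filters, probe summaries, a replicate block, an intensity trend, each array left out and the methods' t-test, which the study names for statistics in general. For RIP-chip the study itself used a cutoff on the fold change of enrichment, and this cutoff was not applied here.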

Additional observations from a re-analysis of the deposited data

Results flagged for a closer look

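The RIP/input of 6 genes of the UFM1 system differed between miR-634 and miR-NC cells by limma's test of that difference, which is the fold change of enrichment itself, so each drew attention as a difference between groups, although 28.1% of all genes were called higher and 43.2% lower in it. DDRGK1 had 2.68 on the log2 scale, UFSP2 1.56 and CDK5RAP3 0.32. UFSP1 had -0.32, UFL1 -0.58 and UFM1 -0.60, and these 3 were above 0 with spike-in scaling. DDRGK1 was the member whose RIP level was called under the input level in miR-NC cells and over it in miR-634 cells. Groups of 2 arrays are too small for a check of single arrays against their group.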

How the results depend on the processing

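Scaling on the spike-in probes lowers RIP/input in both kinds of cells while raising the fold change of enrichment. It called 7341 genes higher and 176 lower in the fold change of enrichment, 57 and 10755 in the enrichment in miR-NC cells, 666 and 9230 in that in miR-634 cells, 25 and 852 in the input change and 7280 and 357 in the RIP change. The log2 fold change of enrichment of UFC1 was then 5.87. It turned to the other sign for UFM1 (0.50), UFL1 (0.52), UFSP1 (0.78), RPL26 (0.027), CYB5R3 (0.44), SEC61B (0.25), ASCC2 (0.23), TEX264 (0.31), RTN3 (0.35), SAE1 (0.69), UBE2M (0.64), ATG3 (0.65), MAP1LC3B (0.36), GABARAP (0.29), SENP3 (0.82) and USP18 (0.72). Likewise the log2 RIP/input in miR-NC cells was -2.55 for CDK5RAP3, -2.31 for UFSP1 and -2.55 for UFSP2, and that in miR-634 cells was -1.12 for CDK5RAP3. The input change was -0.21 for UFL1, -0.13 for UFSP1 and -0.17 for ODR4, and the RIP change was 0.12 for UFM1, 0.31 for UFL1 and 0.65 for UFSP1. The shift of all genes by the spike-in signal is the construction of this alternative.

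Under the other scalings, UFC1 was at 4.62 (normexp and quantile), 4.89 (percentile over all probes) and 4.89 (authors' values). The log2 RIP/input of UFSP1 in miR-634 cells, -1.53 and called under spike-in scaling, was 0.091, 0.057, 0.050, 0.064, 0.063 and 0.080 with normexp and quantile, quantile, median scaling, the percentile over all probes, the authors' values and the mean of probes, and its input change was -0.036 with the mean of probes. The input change had 1070 genes higher and 659 lower with the percentile over all probes and 1071 and 664 with the authors' values, against 1273 and 1329, and the RIP change had 4048 and 3715 with that percentile and 4045 and 3723 with the authors' values, against 3385 and 5098. With the median of all genes subtracted, an alternative chosen after seeing the data, the fold change of enrichment was 4.99 for UFC1, 2.89 for DDRGK1, 1.77 for UFSP2, 0.54 for CDK5RAP3, -0.37 for UFL1 and -0.38 for UFM1.

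Without a filter on dim probes, 8658 genes were lower in the fold change of enrichment, 9985 higher in the enrichment in miR-NC cells, 9073 higher in that in miR-634 cells, 370 higher and 570 lower in the input change and 10430 lower in the RIP change, over more genes tested, and CDK5RAP3 at 0.32 was no longer called (adjusted p = 0.0608 by limma). The methods' t-test, run on the log2 RIP/input per array number, called 2961 genes lower after adjustment. Of the UFM1 system, it no longer called UFL1 at -0.58 (adjusted p = 0.0665), CDK5RAP3 at 0.32 (adjusted p = 0.162) and UFSP1 (0.0549). Of the genes named from the lists, it no longer called TRIP4 (0.109), CYB5R3 (0.0661), UBE2M (0.0767), UBE2L6 (0.0501), ATG3 (0.0887), SUMO2 (0.106), SENP3 (0.218), USP18 (0.167) and ATG4A (0.0642). At the methods' general threshold without adjustment it called 6523 genes in either direction.

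With 1 array left out, the remaining array of its group was taken to vary like the other groups. The input change then had 394 to 1407 genes higher and 549 to 1481 lower. The fold change of enrichment of CDK5RAP3 was 0.22 to 0.42, the RIP/input of UFSP2 in miR-NC cells -0.022 to 0.093 and the input change of UFL1 -0.014 to 0.076. DDRGK1 and UFSP2 were called higher under all alternatives run, with adjusted p up to 0.00992 and 0.0146. With a replicate block, 3073 genes were higher and 4728 lower in the fold change of enrichment. Among the UFM1 system and the genes named from the lists, SENP3 alone then lost its call. Deviations of arrays of 1 number correlated weakly between groups (r from -0.04 to 0.08). The highest values were for input with RIP of the same cells, 0.07 with miR-NC and 0.08 with miR-634. The limma fits other than the replicate block did not treat arrays as paired. Ratios per array number and the methods' t-test matched them by number. Causes of these changes were not tested.

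The alternatives were tallied over the UFM1 system and the genes named from the lists, without those named by rank, profile or chromosome position. Of their values, 1317 kept their direction and side of the threshold or moved less than the spread. Another 58 lost a call, 14 gained a call, 35 changed sign and 52 without a test moved further. Dim probes limit the rest, since only 28.9% of all probes passed the background test on every array.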

Other observations

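Neighbours on the chromosome were read from the order of the RefSeq table (GRCh38.p14) for the members with the largest rises, and were chosen after their values were seen. UFC1 lies between DEDD and USP21. The log2 fold change of enrichment was 2.30 for DEDD (standard error 0.24, adjusted p = 0.000215 by limma) and -0.85 for USP21 (standard error 0.09, adjusted p = 0.000191 by limma, under the 75th percentile scaling). UFSP2 overlaps ANKRD37, which stands directly below UFC1 by rank with a fold change of enrichment of 22.6, and CFAP96, which was not measured. DDRGK1 overlaps ITPA, with a log2 value of 0.85 (adjusted p = 0.00436 by limma). Whether the probes of overlapping genes share signal was not tested.

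Replicates lay close together, with a median SD of the log2 level per gene of 0.04 in each input group and 0.06 in each RIP group (n = 2 arrays each). Few genes differed by over 2-fold between the arrays of a group, with 36 for input and 58 for RIP of miR-NC cells, and 3 for input and 52 for RIP of miR-634 cells.

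The number of arrays, 2 per group, limits every value, and it is not known whether they come from separate transfections. A RIP/input on arrays is relative to the other mRNAs of the same array. Whether the probes tell transcript forms apart was not examined, and protein levels and UFM1 conjugates were not analysed here.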
